A study of Mus musculus with 6 samples.

Results

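The Ly6a-high serum-grown GL261 cells are the 10% of cells with the largest share of Ly6a transcripts in each of the 2 GL261 libraries. A barcode was taken as a cell when it held at least 8000 unique molecular identifiers (UMIs, each a counted RNA molecule), at least 500 genes and under 10% mitochondrial UMIs. Each cell was scored by its Ly6a UMIs divided by its total UMIs, and the top 10% of a library was compared with the bottom 10% of the same library. This gave 797 Ly6a-high cells, 387 of the 3875 cells of replicate 1 and 410 of the 4100 cells of replicate 2, among 7975 GL261 cells and 22868 cells of the whole series. The comparison cells, called Ly6a-low, also number 797. The cells were thus chosen by their measured Ly6a UMIs, and their Ly6a values are given as a description and were not tested.

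GL261 is a mouse glioma cell line, here 1 line grown in a differentiation medium that contains fetal calf serum (FCS). The same series holds 4 libraries of GL261-GSCs, cultures labelled as glioblastoma stem cells, derived from GL261 and kept in a defined stem cell medium. The labels give no transgene, drug, time point or animal, and the protocol text does not settle whether whole cells or nuclei entered the droplets of the 10x Genomics 5' assay. Nothing in the labels says that the 2 GL261 replicates are separate cultures, so the spread between them may be technical.

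Ly6a encodes Sca-1, a small protein held at the cell surface by a lipid anchor and a member of the Ly6 family, whose genes lie side by side in clusters. Sca-1 is best known as the antigen used to sort mouse blood stem cells, and it is also found on other progenitor cells, on endothelial cells and on many tumour lines. Its transcription is known to respond to interferons, the signals that also induce antiviral proteins and the antigen-presenting molecules of MHC class I.

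The 6 libraries held 80899005 to 121309232 UMIs, and the 2 GL261 libraries 110077221 and 102141454. The GL261 libraries shared 23 cell barcodes, where 21.5 would be shared by chance, and 2 of those barcodes were Ly6a-high in both. The chance value covers all cells of the 2 libraries, and none was computed for the Ly6a-high cells alone. With the same limits, the GL261-GSCs libraries gave 14893 cells, in which Ly6a had 1, 1, 0 and 0 UMIs in replicates 1 to 4. Ly6a was therefore practically confined to the serum-grown libraries among the cells counted here.

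Ly6a-high cells held 10 to 89 Ly6a UMIs in replicate 1, with a median of 27, and 12 to 121 in replicate 2, with a median of 28. Levels are given as counts per 1000000 UMIs of the summed cells (CPM). Ly6a stood at 1809 CPM in replicate 1 and 2124 CPM in replicate 2. In the Ly6a-low cells it was 0 and 15.1 CPM, and over all GL261 cells 482 and 615 CPM. All 387 Ly6a-low cells of replicate 1 had no Ly6a UMI. In replicate 2, 317 had none and 93 had 1 UMI. The top 10% of cells carried 36.0% of all Ly6a UMIs in replicate 1 and 33.1% in replicate 2.

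The lowest Ly6a-high cell had 11.801 Ly6a UMIs per 10000 in replicate 1 and the highest cell outside had 11.782, and in replicate 2 these values were 14.251 and 14.214. Ly6a-high is a range of a score, cut at a fixed share of cells. At the bottom of replicate 1, 63 further cells without a Ly6a UMI lay outside the Ly6a-low cells, with ties settled by barcode order. Cells without a Ly6a UMI numbered 450 (11.6%) in replicate 1 and 317 (7.73%) in replicate 2, where a single Ly6a share common to every cell would leave 6.90 and 2.71 cells at 0. The variance of Ly6a UMIs over cells was 11.5 and 10.7 times their mean.

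Free RNA in the droplets also contained Ly6a. Barcodes with 100 to 1000 UMIs, too small to be cells, held Ly6a at 673 CPM in replicate 1 and 713 in replicate 2, above the level over all cells. The part of free RNA in the Ly6a UMIs of single cells was not tested. To see Ly6a in molecules that the choice did not use, the UMIs of each cell were divided at random into equal parts, 5 times, and the cells were ranked on 1 part alone. In the other part of the first division, the top 10% held Ly6a at 1666 and 1909 CPM and the bottom 10% held 103 and 151, a ratio of 16.2 and 12.7. Over the 5 divisions the ratio was 16.2 to 18 in replicate 1 and 12.7 to 15.9 in replicate 2.

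**Figure D1:**
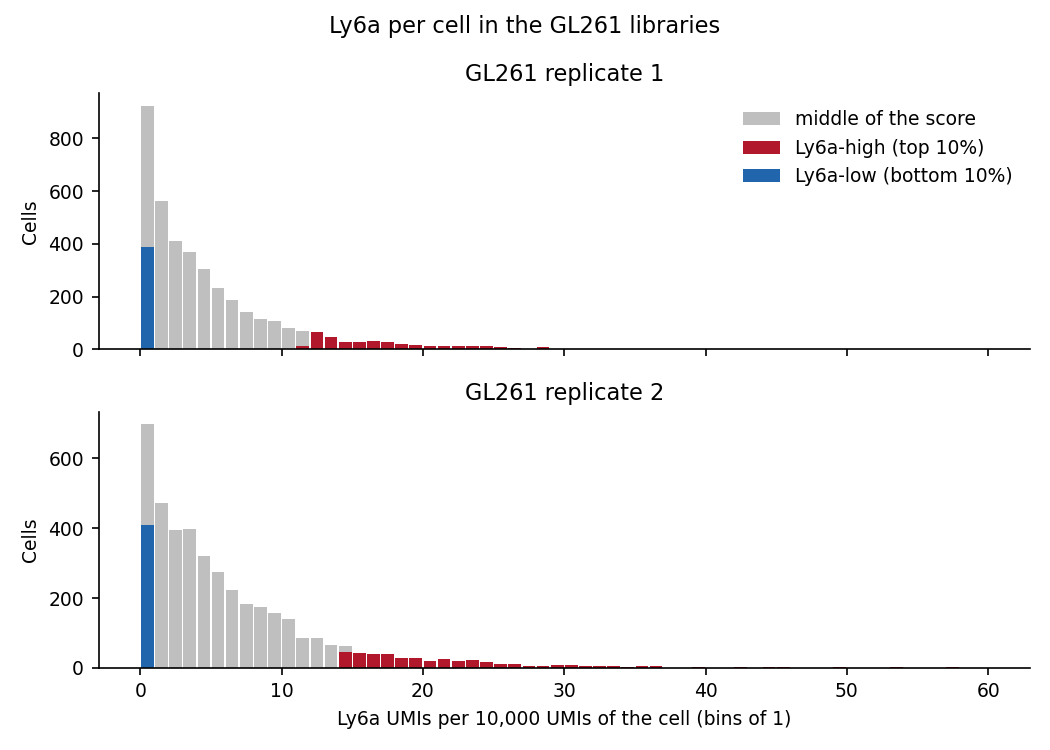
Number of cells (y axis) by Ly6a UMIs per 10000 UMIs of the cell (x axis, bins of 1) in each GL261 library, with Ly6a-high cells in red, Ly6a-low cells in blue and all others in grey. The red cells start at 11.801 in replicate 1 and 14.251 in replicate 2.

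The Ly6a-high and Ly6a-low cells differed little in depth and mitochondrial share, and in opposite directions in the 2 libraries. The median was 16484 UMIs in Ly6a-high and 14775 in Ly6a-low cells of replicate 1, and 13789 against 14734 in replicate 2. Median genes per cell were 4666 against 4470 and then 4300.5 against 4412.5. Mitochondrial UMIs took 1.02% against 1.11% and 1.03% against 0.997%. The share of ribosomal protein genes was lower in Ly6a-high cells of both libraries, at 14.2% against 14.7% and 14.0% against 14.5%, but with a UMI minimum of 5000 the mean difference turned to 0.104 percentage points. With 2 pairs of pools, the smallest 2-sided exact sign-flip p is 0.5, so that test could not pass 0.05, and these shares were not tested.

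UMIs were summed over the Ly6a-high and over the Ly6a-low cells of each library, and the 4 sums were compared gene by gene with the edgeR quasi-likelihood test, with the library as a block and Ly6a left out. The score and the tested genes share the total UMIs of each cell. Of 11762 genes tested, 2159 (18.4%) passed an adjusted p of 0.05. Of these, 1262 (10.7%) were higher and 897 (7.63%) lower in Ly6a-high cells, and 2152 moved in the same direction in both libraries. The calls used both libraries, so this agreement follows largely from the call and carries no weight of its own. Scaled by total UMIs in place of TMM, 862 were higher and 914 lower, so which direction had more calls depended on the scaling. Most changes were small, with 190 rises and 62 falls of at least 2-fold. The median log2 fold change over all genes tested was -0.01.

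The number of calls rested on the block. Without it, 330 genes passed (2.81%), 268 higher (2.28%) and 62 lower (0.527%), all of them among the 2159. The block takes out the difference between the libraries that both pools carry. The remaining spread, estimated from 2 libraries, was small, with a common dispersion of 0.00199. The adjusted p without the block is therefore given beside the genes described in most detail. Fold changes are Ly6a-high over Ly6a-low on the log2 scale with TMM scaling, and levels in CPM are plain shares of the pool's UMIs, with no regard to gene length.

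**Figure D2:**
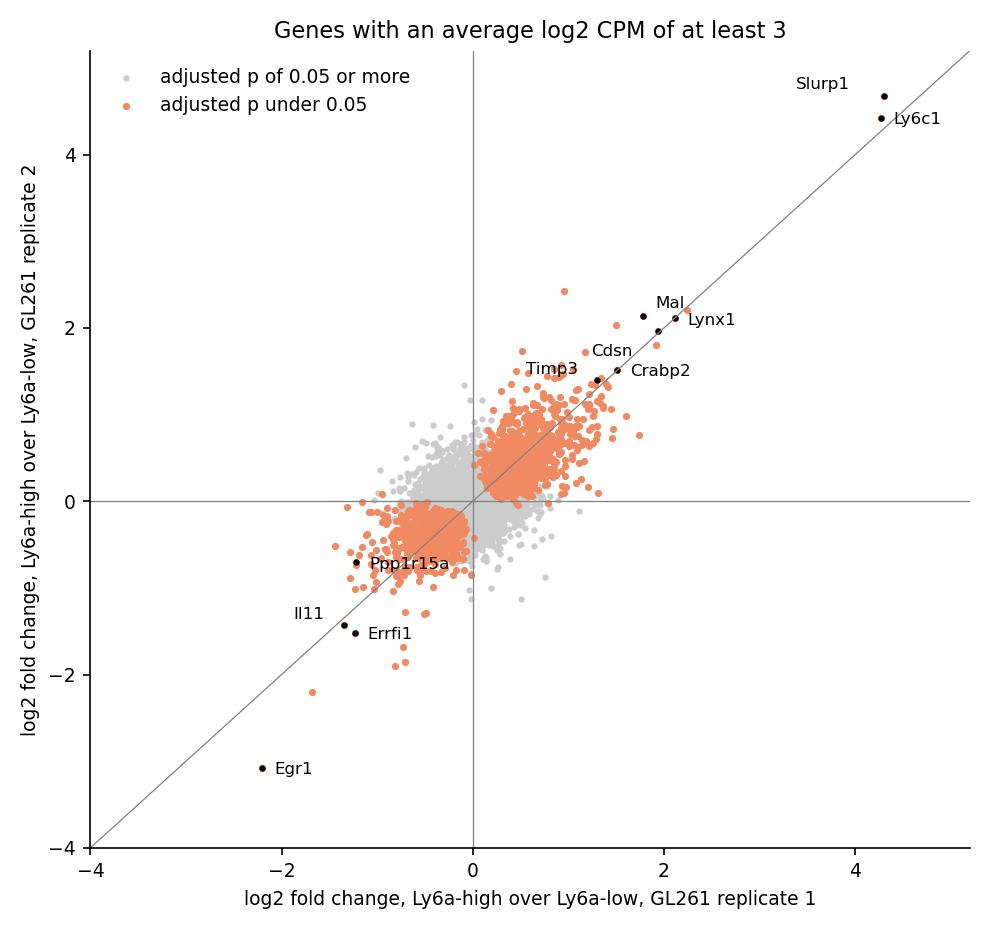
Log2 fold change of each gene in replicate 1 (x axis) and replicate 2 (y axis), Ly6a-high over Ly6a-low, for genes with an average log2 CPM of at least 3; orange points passed an adjusted p of 0.05. Ly6c1 and Slurp1 stand far above the other rises in both libraries, and Egr1 has the largest fall among the genes labelled, at -2.21 and -3.08.

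The largest rises were in neighbours of Ly6a from its own family. Ly6c1, a surface protein of monocytes and endothelial cells encoded close to Ly6a, stood at 365 and 335 CPM in Ly6a-high cells and at 19.5 and 15.8 in Ly6a-low cells. Both Ly6a-high pools lay far above both Ly6a-low pools. The log2 fold change was 4.35, with 4.27 in replicate 1 and 4.43 in replicate 2. The adjusted p was 4.24e-07 without the block. With every cell thinned to 8000 UMIs, Ly6c1 was seen in 86.8% (95% exact interval 83.0 to 90.0) and 83.2% (79.2 to 86.7) of Ly6a-high cells. In Ly6a-low cells it was seen in 13.2% (9.97 to 17.0) and 12.4% (9.40 to 16.0), and without thinning in 95.6% and 92.4% against 23.3% and 17.3%. Free RNA held Ly6c1 at 133 and 103 CPM, a larger share than in the Ly6a-low pools. The part of free RNA in the Ly6c1 UMIs of these cells was not tested.

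Ly6c1 and Ly6a are similar in sequence, and reads that fit both genes may have been assigned to either or dropped. The split between them is therefore uncertain. Any part of Ly6a reads, which chose the cells, in the Ly6c1 difference was not tested. The 300 bases around the start of Ly6c1 (RefSeq, GRCm38.p6, chr15:75048788-75049087, minus strand) are printed because this gene had the largest rise of the well-expressed genes. None of 2 elements known for interferon responses is in this window on either strand, the interferon-stimulated response element, 2 copies of GAAA spaced by 2 bases of any kind, and the STAT element TTCNNNGAA. Over all 27025 mouse promoters of this length, 3.49% held the first and 8.47% the second.
Ly6c1: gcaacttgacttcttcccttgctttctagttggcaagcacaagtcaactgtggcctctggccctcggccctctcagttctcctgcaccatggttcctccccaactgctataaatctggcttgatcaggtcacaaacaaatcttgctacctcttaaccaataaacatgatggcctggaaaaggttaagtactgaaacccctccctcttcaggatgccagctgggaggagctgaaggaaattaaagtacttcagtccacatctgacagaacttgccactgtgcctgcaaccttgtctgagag

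Of 20 genes in the Ly6 family list, 6 had enough UMIs to be tested, and 5 of those rose, with a median log2 fold change of 1.64, beside 10.7% of all genes rising. Low genes can pass the filter through the pools where they are high, so this share carries no weight of its own. Slurp1, which encodes a secreted Ly6 protein, rose by 4.55 from 1.85 and 1.95 CPM in Ly6a-low cells to 36.7 and 51.3 in Ly6a-high cells. Its adjusted p was 0.000163 without the block. These levels rested on 11 and 12 UMIs in the Ly6a-low pools, against 233 and 301 in the Ly6a-high pools. Lynx1, whose protein binds nicotinic acetylcholine receptors, rose by 2.13 from 3.37 and 4.39 to 14.3 and 18.9 CPM. Ly6e, an interferon-inducible antiviral family member, rose by 0.74 ± 0.06 (SE) from 304 and 307 to 555 and 447. Its adjusted p was 0.0137 without the block. Cd59a, an inhibitor of complement, rose by 1.15 with the block and had an adjusted p of 0.0754 without it. Plaur, the urokinase receptor, did not pass, at -0.04.

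Several of these genes lie close to Ly6a itself, at chr15:74994877-74998031 on the minus strand of GRCm38. Of 6 genes tested within 0.4 Mb of its start, 5 rose, with a median of 1.59. These were Them6, Slurp1, Lynx1, Ly6e and Ly6c1, and the sixth, Jrk, had -0.21 and did not pass. The 0.4 Mb window and Them6 were chosen after the values were seen, and the other protein-coding genes in it had too few UMIs to be tested or, for Ly6a, were left out, so this count is a description only. Them6 rose by 1.05 from 69.0 and 78.1 to 148 and 148 CPM, and the annotated spans of Them6 and Slurp1 overlap on opposite strands, so their reads may be confused. From 0.4 to 5 Mb, 20 of 113 genes rose and 3 fell, with a median of 0.11. On the rest of chromosome 15, 67 of 348 rose and 16 fell, with a median of 0.07.

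Chromosome 15 as a whole leaned the same way. Of its 467 genes tested, 92 (19.7%) rose and 19 fell, beside 10.7% and 7.63% over all genes, and its median was 0.09 in both libraries. This median was smaller than the 1.59 next to Ly6a.

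**Figure D3:**
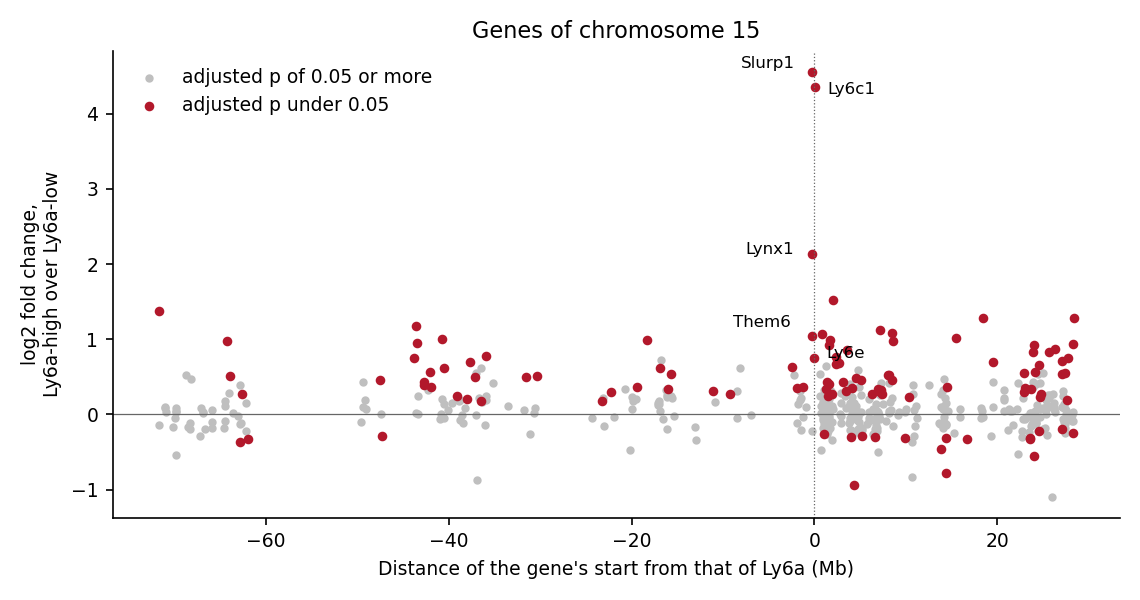
Log2 fold change (y axis), Ly6a-high over Ly6a-low, of the tested genes of chromosome 15 by the distance of their start from that of Ly6a in Mb (x axis); red points passed an adjusted p of 0.05. The tall points at distance 0 are Slurp1 at 4.55, Ly6c1 at 4.35 and Lynx1 at 2.13, and farther away red points lie on both sides of 0, with a median of 0.08 over all tested genes of the chromosome.

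Beyond the Ly6 cluster, the largest rises among well-expressed genes covered membrane, matrix and carrier proteins. Mal, a proteolipid of myelin and of sorting vesicles, rose by 2.0 ± 0.12 (SE), from 15 and 24.8 CPM in Ly6a-low cells to 49.9 and 108 in Ly6a-high cells. Its adjusted p was 0.0259 without the block. Cdsn, an adhesion protein of the outer skin, rose by 1.96 ± 0.09 from 27.4 and 46.5 to 101 and 179. Both genes were higher throughout replicate 2, yet the Ly6a-high pools lay above the Ly6a-low pools of either library. Crabp2, which carries retinoic acid inside the cell, rose by 1.51 in each library, from 99.8 and 110 to 275 and 308, with an adjusted p of 0.000375 without the block. At 8000 UMIs per cell, Crabp2 was seen in 76.7% and 78.5% of Ly6a-high cells and in 39.5% and 44.4% of Ly6a-low cells, or in 87.3% and 86.8% against 58.1% and 60.2% without thinning.

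Timp3, an inhibitor of metalloproteinases that stays bound to the matrix, was at 3483 and 5362 CPM in Ly6a-high and at 1471 and 2065 in Ly6a-low cells. That is a log2 fold change of 1.35 ± 0.05 (SE), with an adjusted p of 0.0158 without the block. Syn3, a synaptic vesicle gene in whose span Timp3 lies on the other strand, rose by 1.21, with an adjusted p of 0.0554 without the block; reads of the 2 genes may be confused. The other rises of this rank were Fez1 (1.37), a transport adaptor of axons, Entpd2 (1.29), an enzyme that breaks down extracellular nucleotides, and Tesc (1.28), a calcium-binding protein. They were followed by Wfdc1 (1.24), a small secreted protein, Lbp (1.23), which binds bacterial lipopolysaccharide, and Pls3 (1.20), which bundles actin. Of these 12 genes, Ly6c1 among them, 11 passed without the block as well, beside 2.28% of all genes called higher without it. The 12 were picked as the largest rises in the same pools, so this count carries no weight of its own.

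Ly6a-high cells had higher levels of interferon-stimulated genes. Of 34 genes of that list tested, 23 (67.6%) rose and none fell, with a median of 0.44, beside 10.7% rising over all genes. The list's median was 0.45 in replicate 1 and 0.46 in replicate 2. Isg15, a ubiquitin-like antiviral protein, stood at 366 CPM in Ly6a-high and 199 in Ly6a-low cells of replicate 1, and at 112 and 69.4 in replicate 2. The difference within each library was smaller than the difference between the libraries, so that the pools overlapped. Its log2 fold change was 0.85 ± 0.07 (SE) with an adjusted p of 4.68e-27, and 0.393 without the block.

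Further rises in the list were Psmb8 (0.91) and Psmb9 (1.35), subunits of the immunoproteasome that cuts proteins for antigen presentation. Ifit3 (1.04), Oasl2 (0.93) and Bst2 (0.42) are antiviral effectors, and Irf7 (0.89) and Stat2 (0.53) transcription factors of the interferon response. Irf9 (0.05), Ifih1 (0.05) and Trim25 (-0.02) did not pass. Without the block, 2 of the 34 genes passed, Psmb8 at an adjusted p of 0.0457 and Ifi27 at 0.046.

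Genes of MHC class I antigen presentation followed the same pattern. Of 15 tested, 10 (66.7%) rose and none fell, beside 10.7% and 7.63% over all genes, with a median of 0.41, and none passed without the block. B2m, the light chain of class I molecules, rose by 0.40 ± 0.06 (SE), from 362 and 264 to 481 and 329 CPM, with an adjusted p of 0.247 without the block. H2-K1, a class I heavy chain, rose by 0.41 from 69.2 and 54.4 to 95.2 and 65.4, with 0.22 without the block. Tap2, which carries peptides to class I molecules, rose by 0.79 from 36.9 and 25.5 to 62.8 and 42.1, with 0.0808 without the block. Class I genes are close copies of each other, and reads may be split among them. The chaperones Canx (-0.11) and Pdia3 (0.12), which serve all secreted proteins, did not pass.

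The interferon list can be set beside its promoters. The interferon-stimulated response element spelled out above was present in 16 of 29 promoters of the list that are in the RefSeq table. It was in 4 of 13 of the MHC class I list, beside 3.49% of all promoters. Genes of the interferon list were picked as known interferon targets, so the excess there follows from that choice and carries no weight. Interferons are known to induce MHC class I molecules as well, so the excess in that list carries no weight either. Among promoters of the largest rises, 0 of 8 held the element. With 8 promoters, this cannot be told apart from the 3.49% of all promoters. The promoter of Isg15 (GRCm38.p6, chr4:156200769-156201068, minus strand) is printed because it holds the element 3 times in overlapping copies, which the capitals mark. The first copy starts 78 bases before the annotated start of the gene. A match is only a match of letters and shows no binding.
Isg15: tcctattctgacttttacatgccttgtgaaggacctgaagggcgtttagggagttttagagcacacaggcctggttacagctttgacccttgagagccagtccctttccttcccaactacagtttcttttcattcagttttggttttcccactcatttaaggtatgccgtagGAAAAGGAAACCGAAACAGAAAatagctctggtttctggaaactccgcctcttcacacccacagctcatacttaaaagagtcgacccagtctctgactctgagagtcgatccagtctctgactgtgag

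Genes of sterol synthesis also rose. Of 23 tested, 16 (69.6%) rose and none fell, beside 10.7% and 7.63% over all genes, with a median of 0.42, and 2 passed without the block. Hmgcs1, which makes the precursor of mevalonate, stood at 36.7 and 43.9 CPM in Ly6a-high and at 27.6 and 21.6 in Ly6a-low cells, a log2 fold change of 0.75 ± 0.13 (SE) with an adjusted p of 0.0374 without the block. Fdps (0.72) and Sqle (0.54), enzymes of later steps, rose as well, as did Insig1 (0.49), which holds the pathway in check. Tm7sf2, a sterol reductase, rose by 1.04 with an adjusted p of 0.0217 without the block.

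The sterol regulatory element was searched for as TCACNCCAC on both strands. It was in 1 of 16 promoters of the sterol list and in 1.22% of all 27025. That 1 is the promoter of Hmgcs1 (GRCm38.p6, chr13:119690101-119690400, plus strand), printed for this reason, with the element, 137 bases before the start, in capitals.
Hmgcs1: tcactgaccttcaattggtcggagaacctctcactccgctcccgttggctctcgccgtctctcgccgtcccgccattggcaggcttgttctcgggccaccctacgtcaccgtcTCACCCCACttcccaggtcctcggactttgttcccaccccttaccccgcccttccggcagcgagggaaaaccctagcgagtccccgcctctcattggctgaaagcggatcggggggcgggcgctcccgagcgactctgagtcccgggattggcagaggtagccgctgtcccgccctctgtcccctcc

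Matrix and mesenchymal genes rose in part. Of 23 mesenchymal genes tested, 12 (52.2%) rose and 2 (8.70%) fell, beside 10.7% and 7.63% over all genes, with a median of 0.26, and 6 rose and 1 fell without the block. Col1a1, a chain of fibrillar collagen, was at 284 and 352 CPM in Ly6a-high against 168 and 159 in Ly6a-low cells, a rise of 0.99 ± 0.07 (SE) with an adjusted p of 0.00487 without the block. Col6a1 (0.90), Sparc (0.69), a collagen-binding protein, S100a4 (0.93) and Lgals3 (0.78), which encodes galectin-3, rose too. Vim, the intermediate filament of mesenchymal cells, rose by 0.29, from 12392 and 13139 to 15093 and 15197 CPM, with an adjusted p of 0.0862 without the block. The falls were Cd44, the hyaluronan receptor, by 0.32 on the log2 scale with an adjusted p of 0.136 without the block, and Spp1, which encodes osteopontin and had under 12 CPM in every pool. Fn1 (0.02), Timp1 (-0.10) and Lgals1 (-0.04) did not pass.

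Of 16 secreted proteases and inhibitors, 6 (37.5%) rose and 1 (6.25%) fell, with a median of 0.15, beside 10.7% and 7.63% over all genes. Without the block 3 rose. In cells of middle ribosomal protein share 5 of 15 rose and 4 fell, and the median turned to -0.07. Of all 10680 genes tested in that setting, fewer passed in each direction than with all cells, as listed under the processing settings. Timp2 (0.62), a metalloproteinase inhibitor like Timp3, and the lysosomal proteases Ctsl (0.59) and Ctsd (0.46) rose. Klk8, a serine protease, rose by 0.55 from 505 and 678 to 842 and 826, with an adjusted p of 0.069 without the block. Of 14 progenitor surface antigens, 4 (28.6%) rose and 2 (14.3%) fell, beside the same 10.7% and 7.63%, and the median was 0.0019. Cd9 (0.62) and Cd81 (0.63), tetraspanins, rose and passed without the block at adjusted p of 0.0123 and 0.0111, while Cd34 (0.07), a blood progenitor antigen at 1.30 to 2.20 CPM, did not pass. Thy1 had too few UMIs to be tested.

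Of 20 contractile genes tested, 7 (35.0%) rose and none fell, beside 10.7% and 7.63% over all genes. The list's median was 0.04, with 0.18 in replicate 1 and -0.01 in replicate 2, and none passed without the block. Acta2, smooth muscle actin, had 232 and 269 CPM in Ly6a-high and 215 and 325 in Ly6a-low cells, higher in 1 library and lower in the other. Tagln, its frequent companion, was at 102 and 124 against 101 and 158. Their fitted values of -0.05 and -0.14 did not pass, and both turned positive in cells low in cell cycle genes, where Tagln passed at 0.51. Tagln2 (0.36), a relative with wider expression, rose with the block and had an adjusted p of 0.0554 without it. In the TGF-beta list, 3 of 15 (20%) rose and 1 (6.67%) fell, beside 10.7% and 7.63% over all genes, and none passed without the block. Thbs1, an activator of TGF-beta, rose by 0.35 with an adjusted p of 0.273 without the block, and Tgfb2 had 0.13 and did not pass.

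**Figure D4:**
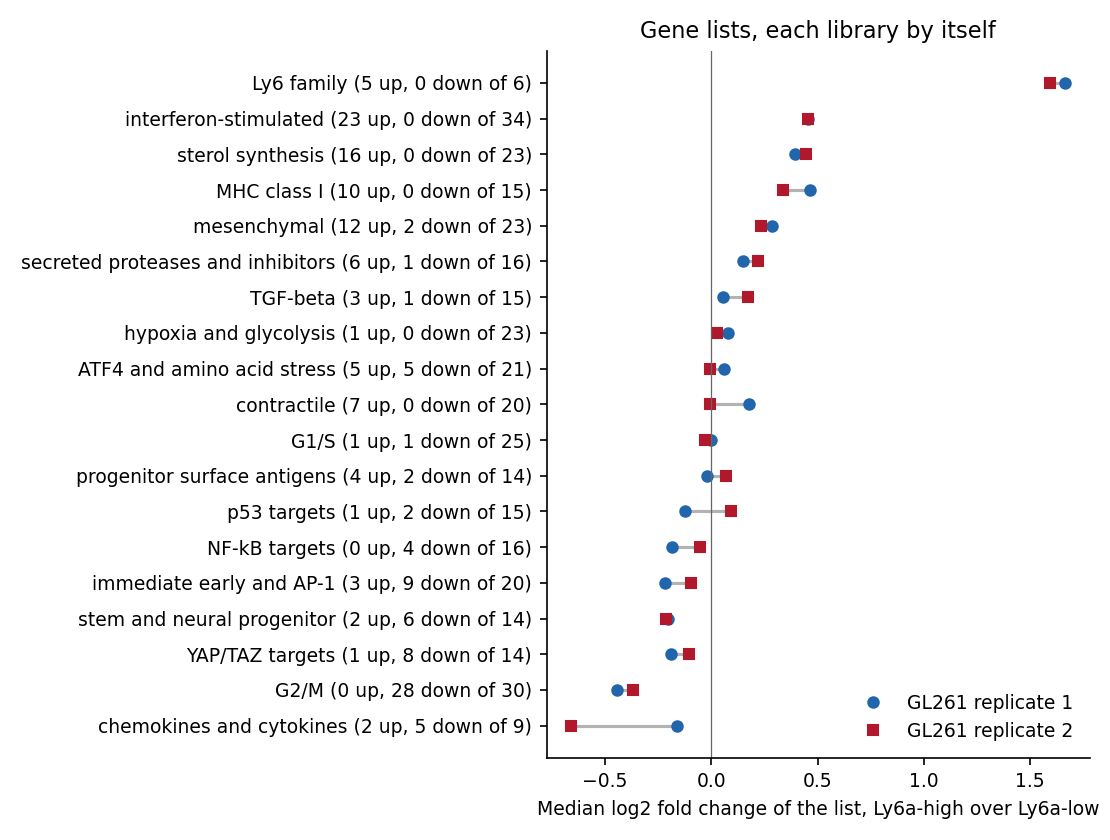
Median log2 fold change (x axis), Ly6a-high over Ly6a-low, of each gene list (y axis) in replicate 1 (blue circles) and replicate 2 (red squares), with the number of genes called up and down of those tested. The Ly6 family, interferon, sterol and MHC class I lists lie to the right in both libraries, and the G2/M list lies to the left with 28 of 30 genes down.

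Genes that were lower in Ly6a-high cells included immediate early genes, which growth factors and stress switch on within minutes. Egr1, a transcription factor of this class, stood at 28.5 and 6.98 CPM in Ly6a-high cells and at 137 and 60.4 in Ly6a-low cells. Both Ly6a-high pools lay below both Ly6a-low pools, and Egr1 fell by 2.46 on the log2 scale (SE 0.12), with an adjusted p of 0.0411 without the block. At 8000 UMIs per cell it was seen in 10.1% and 3.41% of Ly6a-high cells against 18.6% and 16.8% of Ly6a-low cells, and without thinning in 14.2% and 5.61% against 25.1% and 22%. Of 20 genes in the list, 9 (45.0%) fell and 3 rose, with a median of -0.19, beside 7.63% falling and 10.7% rising over all genes, and without the block Egr1 alone passed.

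The list was not uniform. Maff (-0.94), Ier5 (-0.83), Atf3 (-0.82), Junb (-0.50) and Fosl1 (-0.30) were lower, Dusp1 (0.47), Ier3 (0.31) and Klf2 (0.31) were higher, and Fos (-0.03) and Jun (-0.04) did not pass. Nab2, a partner protein that represses through Egr1 and is itself an Egr target, fell from 89.6 and 83.8 to 52.5 and 47.5 CPM, a log2 fold change of -0.75 with an adjusted p of 0.0107 without the block. Errfi1, a feedback inhibitor of the EGF receptor, fell from 53.4 and 40.4 to 21.9 and 13.8, a log2 fold change of -1.36. Dusp6 (-0.48), a phosphatase that turns off ERK, was lower as well.

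Some secreted signals were lower as well. Of 9 chemokines and cytokines tested, 5 (55.6%) fell and 2 (22.2%) rose, beside 7.63% and 10.7% over all genes, and 2 fell without the block. Il11, a cytokine of the interleukin-6 family, was at 19.0 and 10.7 CPM in Ly6a-high and at 50.5 and 29.6 in Ly6a-low cells, a log2 fold change of -1.39 ± 0.14 (SE) with an adjusted p of 0.0445 without the block. Csf1, the growth factor of macrophages, was at 33.8 and 25.9 against 71.5 and 45.5, a log2 fold change of -0.92. Hbegf (-0.41), a ligand of the EGF receptor, fell with the block and had an adjusted p of 0.14 without it. In the NF-kB list, 4 of 16 (25%) fell and none rose, beside 7.63% falling over all genes, and 1 fell without the block. That was Tnfaip3 (-0.96), an inhibitor of the pathway, at an adjusted p of 0.0314. In cells low in cell cycle genes it was at -0.29 with an adjusted p of 0.543, and a DESeq2 Wald test did not call it. Vcam1 (-2.37), an adhesion molecule, had a larger change but only 2 to 16 UMIs a pool.

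Stress genes were split. In the ATF4 list, 5 of 21 (23.8%) rose and 5 fell, beside 10.7% and 7.63% over all genes, and none passed without the block. Ddit3, a transcription factor of the unfolded protein response, fell by 0.88 on the log2 scale, with an adjusted p of 0.116 without the block, while Aldh1l2 (0.53) and Asns (0.40), enzymes of folate and asparagine metabolism, rose. Ppp1r15a, which restores protein synthesis after stress, was at 40.3 and 39.5 CPM in Ly6a-high and at 97.3 and 65.5 in Ly6a-low cells, a log2 fold change of -0.98 with an adjusted p of 0.0222 without the block. Snhg15, a long noncoding RNA, was at 50.5 and 47.5 CPM in Ly6a-high and at 113 and 62.7 in Ly6a-low cells, a log2 fold change of -1.10 in replicate 1 and -0.38 in replicate 2. It did not pass in cells of middle ribosomal protein share, at -0.17. The remaining large falls were Rorb (-0.94), a nuclear receptor, and Slc5a3 (-0.73), a transporter of inositol. Rgs16 (-0.72), a brake on G protein signalling, and Nkain2 (-0.69), a membrane protein, completed them. Of the 12 largest falls, 7 passed without the block, beside 0.527% of all genes called lower without it. Rorb, Csf1, Ddit3, Snhg15 and Slc5a3 did not pass. These 12 were also picked from the same pools, so the count carries no weight of its own.

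Mitotic genes were lower in Ly6a-high cells. Of 30 genes of the G2/M list, 28 (93.3%) fell and none rose, beside 7.63% falling over all genes, with a median of -0.39, and 3 fell without the block, Cenpf, Cenpa and Cdc20. Cenpa, the histone of centromeres, was at 209 and 242 CPM against 350 and 374, a log2 fold change of -0.65 ± 0.07 (SE) with an adjusted p of 0.0158 without the block. Mki67, the proliferation antigen Ki-67, was at 205 and 276 against 326 and 404, with an adjusted p of 0.0837 without the block. Together, the G2/M genes took 0.421% and 0.514% of UMIs in Ly6a-high cells and 0.582% and 0.676% in Ly6a-low cells.

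Few genes of the G1/S transition passed. Of 25 tested, 1 rose, Ccne1 at 0.38, and 1 fell, Tyms at -0.30, fewer than the 10.7% and 7.63% over all genes, with a median of 0.01 and no call without the block. The G1/S genes took 0.198% and 0.205% of UMIs in Ly6a-high against 0.201% and 0.220% in Ly6a-low cells. Since the G2/M share was lower in the Ly6a-high cells of both libraries, the comparison was repeated in the 50% of cells of each library with the lowest share of cycle genes. There, 1364 genes passed, 1148 of them in the same direction as with all cells. Of 10743 genes tested there, 816 rose. The interferon list had 22 rises of 33 with a median of 0.60, and the sterol list 9 of 23. The G2/M list, whose genes the choice of cells used, had 4 falls and a median of -0.07.

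Neural stem and YAP/TAZ genes were lower in part. Of 14 stem and neural progenitor genes tested, 6 (42.9%) fell and 2 (14.3%) rose, beside 7.63% and 10.7% over all genes, with a median of -0.20. Without the block none of the 14 fell and 1 rose. In cells low in cell cycle genes 1 of 13 fell and 3 rose, with a median of -0.19. In cells of middle ribosomal protein share 2 of 13 fell and 2 rose, with a median of -0.11. Over all genes, fewer passed in each direction in both of these settings than with all cells, as listed under the processing settings. Sox2, a transcription factor of neural stem cells, was at 51.6 and 64.9 CPM against 76.1 and 67.9, a log2 fold change of -0.27 with an adjusted p of 0.0323, and 0.279 without the block. That value rested on replicate 1, with -0.51 there and -0.04 in replicate 2, and Sox2 did not pass in 8 of 14 other settings, with adjusted p up to 0.816. Nes, which encodes nestin, had a value of 0.04 and did not pass. Id1 (-0.22) and Id3 (0.35), inhibitors of differentiation factors, passed with opposite signs, and neither passed without the block, at adjusted p of 0.193 and 0.0518. Id1 did not pass in 5 of 14 other settings. Klf4, a pluripotency factor, rose by 0.53, from 128 and 129 to 169 and 192, with an adjusted p of 0.026 without the block.

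Of 14 YAP/TAZ targets and partners, 8 (57.1%) fell and 1 (7.14%) rose, beside 7.63% and 10.7% over all genes, with a median of -0.25, and without the block the only call was the rise of Ctgf (0.60), a matrix signalling protein. F3, tissue factor, was lower by 0.17 in replicate 1 and by 0.80 in replicate 2 on the log2 scale, with an adjusted p of 0.0828 without the block. Cyr61 (-0.33), a relative of Ctgf, and Tead1 (-0.42), the DNA-binding partner of YAP, fell only with the block. In the hypoxia and glycolysis list, 1 of 23 (4.35%) rose, Aldoa at 0.17 with an adjusted p of 0.394 without the block and no call in 6 of 14 other settings. In the p53 list 1 of 15 (6.67%) rose, Phlda3 at 0.43, and 2 (13.3%) fell, beside 10.7% and 7.63% over all genes, and nothing is read from either list. Cdkn1a (0.08), the cycle inhibitor p21, did not pass.

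Markers of other cell types were examined because Ly6a marks endothelial and blood cells in tissue. The defining genes of microglia Ptprc, C1qa, C1qb and Itgam were at 0 UMIs in all 4 pools, and so were the endothelial genes Kdr, Tek, Cldn5 and Emcn and the fibroblast genes Dcn, Lum and Col1a2. The 12 microglia and macrophage markers summed to 32.6 and 27.4 CPM in Ly6a-high and to 16.3 and 16.6 in Ly6a-low cells. Csf1r, the receptor of Csf1, gave 19.4 and 15.7 of these in Ly6a-high and 7.24 and 9.58 in Ly6a-low cells, and rose by 1.09 with an adjusted p of 0.0359 without the block. The 9 endothelial markers summed to 51.1 and 42.6 against 44.4 and 38.8, mostly from Flt1. Pericyte and fibroblast markers summed to 478 and 584 against 299 and 308, mostly from Col1a1 and Cspg4. Of the 5 tested, 3 rose and 1 fell, beside 10.7% and 7.63% over all genes, and 2 rose without the block.

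Some glial and neuronal genes rose as well. Markers of the oligodendrocyte lineage summed to 579 and 757 CPM in Ly6a-high against 474 and 546 in Ly6a-low cells. Of 4 tested, 3 rose, beside 10.7% of all genes, and 2 passed without the block. Sox10, Mbp and Cnp were among those over 10 CPM, and Sox10 (0.08) did not pass. Of the 8 markers, 1 and 3 were at 0 UMIs in the Ly6a-high pools and 1 and 2 in the Ly6a-low pools. Mbp, a myelin protein, rose by 0.83 with an adjusted p of 0.135 without the block. Astrocyte markers summed to 65.4 and 60.5 against 53.4 and 49.2, with Aqp4 and Slc1a2 at 0 in all pools. Among neuronal markers Rbfox3, Snap25 and Dcx were at 0 in all pools, and Tubb3, a tubulin of neurons also found in gliomas, rose by 1.16 from 57.4 and 60.3 to 133 and 122. Lymphocyte and blood progenitor markers summed to 2.11 to 3.62 in the 4 pools.

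In the cells between the extremes, some genes changed step by step and others did not. The cells of each library were divided into 10 equal bins of the score, of which bin 1 is the Ly6a-low and bin 10 the Ly6a-high end. Bin 1 of replicate 1 has 388 cells, 1 more than the Ly6a-low cells, so its values differ slightly from theirs. Ly6c1 rose at each step in both libraries, from 19.8 to 365 CPM and from 15.8 to 335 CPM, and its largest step was the last, from 184 and 166 in bin 9. Crabp2, the retinoic acid carrier, went from 99.7 and 110 CPM in bin 1 to 218 and 241 in bin 9 and 275 and 308 in bin 10. Egr1 fell from 136 and 60.4 CPM to 28.5 and 6.98, with a single high value of 210 in bin 2 of replicate 1. Cenpa stayed between 292 and 374 CPM up to bin 8 in both libraries and was 209 and 242 in bin 10. The interferon list, summed, was at 2612 and 1438 CPM in bin 1 and at 3603 and 1836 in bin 10. In replicate 2 it stayed between 1438 and 1606 CPM up to bin 8. These levels share cells and totals with the score and are a description.

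**Figure D5:**
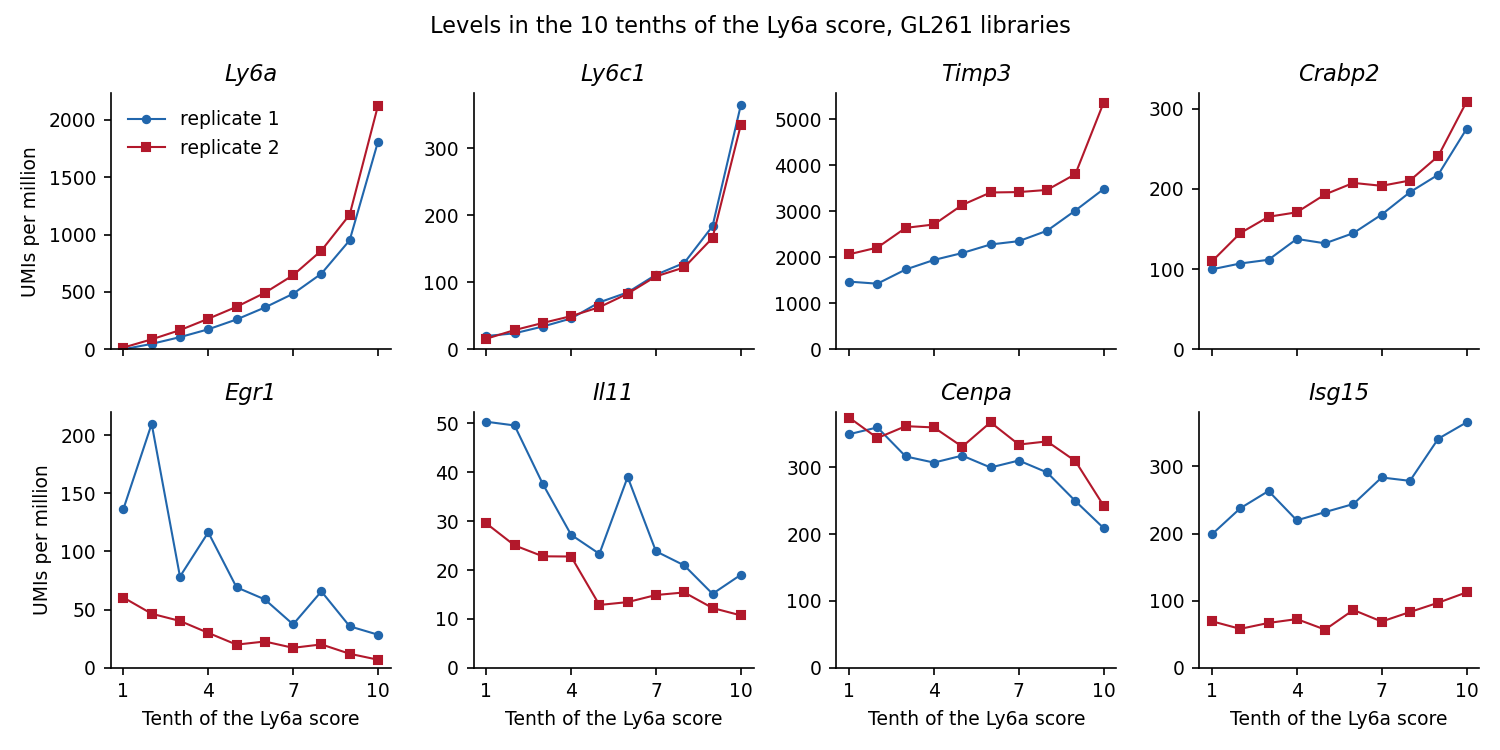
CPM (y axes, each starting at 0) of 8 genes in the 10 equal bins of the Ly6a score (x axis, lowest to highest) in GL261 replicate 1 (blue) and replicate 2 (red). Ly6a, Ly6c1, Timp3 and Crabp2 climb along the score, Egr1 and Il11 fall from its lower end, and Cenpa falls mainly in the last 2 bins.

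GL261-GSCs cells, which had practically no Ly6a, were not simply like Ly6a-low cells. For 11 of the 12 largest rises, all 4 GL261-GSCs libraries lay below both Ly6a-low pools, as they did for 35.6% of the 5147 tested genes with an average log2 CPM of at least 5. Ly6c1 had 5 UMIs in replicate 1 and 0 in the other 3, Timp3 was at 205 to 245 CPM and Crabp2 at 7.69 to 23.6. At 8000 UMIs per cell, no GL261-GSCs cell showed a Ly6c1 UMI, which allows a share of cells with a UMI at this depth of up to 0.0616% to 0.168% by library and sets no limit on cells that express the gene. Without thinning, 0.0278% of the cells of replicate 1 had one. The exception was Fez1, at 58.9 to 90.9 CPM, above even the Ly6a-high pools at 53 and 44.8. For the 12 largest falls, all 4 libraries lay below both Ly6a-low pools in 8 and above both in 1, Slc5a3, at 82.0 to 170 CPM, where 20.7% of those 5147 genes lay above both. Egr1, at 31.7 to 80.3 CPM, overlapped the Ly6a-low pools. Among other genes, Il11 at 4.57 to 7.80 CPM lay below the Ly6a-high pools, and Hmgcs1, which was higher in Ly6a-high cells, was at 247 to 477 CPM, above all GL261 pools. The culture medium and the cell state differ together between these groups and cannot be told apart.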

How the data were processed

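Single-cell RNA was counted in 6 libraries, of which the 2 GL261 libraries entered the comparison and the 4 GL261-GSCs libraries are given as levels. The authors deposited whole-number UMI counts for every gene in every barcode, empty ones included. Cell Ranger 4 made them per the file headers, and the build was mm10 per the submitters' processing notes. Whether counting used strand is not stated in the labels or headers. Groups and replicate numbers come from the sample titles.

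Cells were chosen by the limits stated in the report. The members and the gene lists were chosen with earlier results of these data known. No doublet caller was run. Of 54446 gene identifiers, 54409 matched GENCODE M21 (GRCm38) without version, and 94 repeat a symbol, of which the one with most UMIs stood for the symbol in the lists. UMIs were summed per pool and library and tested in edgeR 4.0.16 (R 4.3.3) with glmQLFit and glmQLFTest, TMM, filterByExpr, the library as a block and Benjamini-Hochberg adjustment over 11762 genes, 2-sided. The SE is the log2 fold change divided by the square root of F. For large changes that rest on few UMIs this value is too small, so none is given for Ly6c1 and Slurp1. The library pairs the pools by construction, since both pools are cells of 1 library; their deviations correlated at 0.52. The estimated spread came from 2 libraries only. With prior degrees of freedom of Inf, the genes shared this estimate and none kept a spread of its own. The p-values with the block may therefore be too small.

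Genes were named by rule: the 12 largest rises and falls that passed an adjusted p of 0.05, averaged a log2 CPM of 5 or more and kept 1 direction in both libraries, each list's gene of smallest p, and a set list of genes. List members named beyond this were chosen after their values were seen. A few list members are counted in their lists but not reported here by name. On simulated counts over 11762 genes, the test with the block recovered 99 of 100 genes changed by a log2 value of 1. It recovered 73 of 100 changed by 0.5, with 11 false of 183 calls. Without the block these were 68 and 7, with 0 false of 75. The counts were simulated at the dispersion that the fit with the block had estimated, so they cannot show whether that dispersion is too small. Shares of cells have exact binomial (Clopper-Pearson) intervals at 95% in scipy 1.17.1, and a share of 0 is given the limit of 3 cells; both cover counting error only. Alternatives were DESeq2 1.42.0, other scaling, filters, tails of 5% and 20%, UMI limits of 5000 and 12000, a mitochondrial limit of 5%, thinning to 8000 UMIs, subsets of cells and leaving out pools.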

Additional observations from a re-analysis of the deposited data

How the results depend on the processing

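Without the replicate block, 330 genes passed in place of 2159 (268 higher, 62 lower), and a DESeq2 Wald test gave 265 (206 and 59). Of 61 genes named by the rule, 25 lost their call without the block, and 14 of 58 with DESeq2. Thinning to 8000 UMIs gave 1212 (747 and 465), cells low in cycle genes 1364 (816 and 548) and cells of middle ribosomal protein share 1335 (791 and 544), all with fewer molecules tested. Leaving out 1 pool at a time without the block gave 609, 52, 735 and 121 calls, of which 419, 49, 511 and 91 were higher and 190, 3, 224 and 30 lower, for the Ly6a-high and the Ly6a-low pool of replicate 1 and then of replicate 2, the lone pool being assumed to vary like the others. Leaving out a whole library left no residual degrees of freedom, so no count of calls could be had. Scaling by total UMIs moved the median of all genes to -0.04 and gave 862 higher and 914 lower.

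The G2/M share difference of -0.161 percentage points was -0.132 with 20% tails, -0.210 with 5% tails, -0.163 and -0.176 at UMI minimums of 5000 and 12000, and -0.138 thinned. The ribosomal protein share difference of -0.498 was -0.266, -0.448, 0.104, -0.704 and -0.278 in the same order, so its direction turned at the lower UMI minimum; the cause was not tested. Directions turned in genes that did not pass: Nes to -0.0886 in cells of middle ribosomal share and to -0.00362 and -0.00468 with a pool left out; Acta2 to 0.123 when thinned and 0.0244 in cells low in cycle genes; Tagln to 0.0343 with 20% tails and 0.51 in cells low in cycle genes. With a pool left out and no block, Acta2 reached 0.0302 and 0.285, Tagln 0.23, Cd34 -0.31 and -0.22, Tgfb2 -0.0671 and -0.182 and Cdkn1a -0.0700. Isg15 turned to -0.21 without the Ly6a-high pool of replicate 1. The other genes named by the rule kept their direction in each setting that tested them. Genes named beyond the rule were not followed through the settings.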

Other observations

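In the promoters of the largest rises, the element GGAATG, bound by TEAD factors, was more frequent than in promoters at large. Of 8 such promoters in the RefSeq table, 5 held it on either strand within 300 bases, beside 14.6% of all 27025 promoters and 1 of 11 promoters of the largest falls. The AP-1 element TGANTCA was in 1 of the 8 and in 7.93% of all. Several elements were searched, and this one was noticed after the values were seen. With 8 promoters of genes picked from these same data, its excess carries no weight, and these are matches of letters only. Ctgf, a TEAD target, rose in Ly6a-high cells, while 8 of the 14 genes of the YAP/TAZ list fell. Any part of TEAD factors in these changes was not tested.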
